A study of Mus musculus with 2 samples.

Results

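The genes of homologous recombination and of the Fanconi anaemia pathway were read in E14 cells, a mouse embryonic stem cell line. The set comprised 39 genes, listed by name for their roles in these pathways and found by symbol, of 47643 gene IDs in the count tables. All 39 were found. The cells have a 129/Ola background and, by their labels, lack both Ago1 and Ago2, whose Argonaute products carry out microRNA repression. PolyA RNA of this 1 genotype was sequenced in 2 libraries, called here replicate 1 and replicate 2. Culture was on gelatine with 15% serum and 100 U/mL LIF. Whether each library had its own culture or clone is not stated, so the SDs given here reflect a spread between libraries that may be technical. Unmodified cells were not analysed here, so nothing reported is an effect of the knockout.

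Homologous recombination repairs a broken chromosome by copying an intact one. Kinases signal the break, nucleases resect its ends, the BRCA proteins load a recombinase filament on the exposed strand, the filament invades the intact copy with the help of motor proteins, and nucleases and helicases resolve the joined molecules. The Fanconi pathway works at DNA crosslinks: a core complex attaches ubiquitin to the FANCD2 and FANCI pair, which directs incision and hands the break to recombination. Embryonic stem cells divide fast, spend much of their cycle in DNA synthesis and are known to rely on this form of repair. Germ cells use a meiosis-specific recombinase, DMC1, beside the somatic machinery.

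Replicate 1 held 34798975 gene counts and replicate 2 held 29789560. Levels are given in TPM, computed from the counts and the merged exon length of each gene, so that genes can be compared per length. At a merged exon length of 3000 bases, 3 counts, taken as the floor, equal 0.0794 TPM in replicate 1 and 0.0923 TPM in replicate 2. Ago1 stood at 24.1 and 47.8 TPM in replicates 1 and 2 and Ago2 at 24.4 and 25.3 TPM. Ago1 differed between the libraries by a log2 ratio of 0.99 ± 0.037 (counting SE), which also passed edgeR's exact test (adjusted p = 1.37e-08), and Ago2 did not pass it (adjusted p = 1). These values sum all exons and check no genotype label, and whether the libraries come from 1 clone was not tested. All 10 listed markers of embryonic stem cells, Pou5f1 and Nanog among them, lay at or above 50.1 TPM on average. Of 10 fibroblast markers 2 reached 1 TPM in both libraries, with a summed level of 25.9 and 24.3 TPM, most of it Thy1, and Col3a1, Lum and Postn had no count. Of the markers of primitive endoderm, mesoderm and neuroectoderm 1 of 6, 1 of 5 and 2 of 5 reached 1 TPM in both libraries.

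All 39 repair genes were expressed, that is, at 1 TPM or more in both libraries, where 56.8% of 21620 protein-coding genes were. The lowest count of any of them in a library was 127 and the highest 6397. Their median level was 19.4 TPM in replicate 1 and 18.8 TPM in replicate 2, against 18.1 and 17.8 TPM for the 12271 expressed protein-coding genes. On the scale of log2(TPM + 1) this was 4.33 ± 0.032 for the repair genes and 4.24 ± 0.016 for expressed protein-coding genes (SD, n = 2). As a set they thus sat near the middle of expressed genes, with the middle 50% of members from 10.3 to 32.2 TPM and that of expressed genes from 6.63 to 44.4 TPM. Of the members, 29 averaged 10 TPM or more. Fanci was the highest at 70.6 ± 1.15 TPM and Rad51b the lowest at 3.56 ± 0.377 TPM. Chek2 (61.2 ± 4.47 TPM) and Brca1 (60.5 ± 1.38 TPM) followed Fanci, and the difference between Chek2 and Brca1 was smaller than the SD of Chek2.

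The order of levels depends on the length assigned to each gene. TPM on the longest annotated transcript moved the level of 6 members more than 1.5-fold, in each case upward. Atr stood at 11.1 TPM on its merged exons, which span 23629 bases, and at 25.5 TPM on its longest transcript. The other 5 were Fancc (4.68 and 9.73 TPM, on merged exons and on the longest transcript), Rbbp8 (7.67 and 13.8 TPM), Rad54b (34.3 and 54.4 TPM), Palb2 (12.5 and 19.3 TPM) and Fanca (17.3 and 26.5 TPM). Across the 39 members, mean TPM had a Spearman rho of -0.20 with GC content and of 0.03 with merged exon length, given as a description. Members shared exons with other annotated genes to differing degrees. In 10 of them over 10% of exon bases overlap another gene on either strand, and how such reads were counted is not given in the sources used here. In Rad54b, 35.8% of exon bases lie within Fsbp on the same strand, and in Atrip 16.0% lie within Trex1.

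Promoter sequence was read next, as a feature the choice of genes did not use, in a search added after the levels were seen. RefSeq start sites on GRCm38.p6 gave a window of 300 bases, 250 before and 50 after the start, for 31 of the 39 members. Rad50, Nbn, Rbbp8, Exo1, Rad51d, Xrcc2, Rad54b and Fancd2 had no entry. Cell cycle genes are often bound by E2F factors, and 4 spellings of their site (TTTCCCGC, TTTCGCGC, TTTGCCGC and TTTGGCGC) were searched on both strands. A match lay in 6 of 31 member promoters (19.4%), against 4.39% of the promoters of 9571 expressed protein-coding genes and 2.33% of all 27025 promoters. These counts use the most upstream listed start of each gene. That rule replaced the first listed start after a first count, because the first listed start of Rad51c lies downstream of its annotated start. The first count was also 6 of 31 members, against 4.37% of expressed genes, and with every listed start counted the shares were 19.4% of members and 4.89% of expressed genes. No test was made of the difference, and E2F was 1 of 6 motifs searched. Median GC content of the windows was 59.7% in members and 61.0% in expressed protein-coding genes. The 6 promoters are printed because they carry this difference in share, 5' to 3' on the strand of the gene, with the match in capitals. A match is a description of letters and shows no bound factor.

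Chek2 (chr5:110839733-110840032, plus strand): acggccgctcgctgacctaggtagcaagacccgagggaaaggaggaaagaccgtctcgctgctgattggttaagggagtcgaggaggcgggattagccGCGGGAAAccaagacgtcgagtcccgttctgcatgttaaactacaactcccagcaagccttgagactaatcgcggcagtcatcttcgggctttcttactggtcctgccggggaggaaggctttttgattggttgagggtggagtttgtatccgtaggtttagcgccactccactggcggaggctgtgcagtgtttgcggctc

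Bard1 (chr1:71102923-71103222, minus strand): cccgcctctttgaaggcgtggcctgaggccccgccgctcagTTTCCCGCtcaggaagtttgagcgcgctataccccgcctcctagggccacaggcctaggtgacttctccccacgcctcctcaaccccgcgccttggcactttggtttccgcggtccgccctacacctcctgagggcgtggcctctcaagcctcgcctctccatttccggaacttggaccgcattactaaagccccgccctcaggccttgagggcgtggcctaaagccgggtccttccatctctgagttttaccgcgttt

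Brca2 (chr5:150522371-150522670, plus strand): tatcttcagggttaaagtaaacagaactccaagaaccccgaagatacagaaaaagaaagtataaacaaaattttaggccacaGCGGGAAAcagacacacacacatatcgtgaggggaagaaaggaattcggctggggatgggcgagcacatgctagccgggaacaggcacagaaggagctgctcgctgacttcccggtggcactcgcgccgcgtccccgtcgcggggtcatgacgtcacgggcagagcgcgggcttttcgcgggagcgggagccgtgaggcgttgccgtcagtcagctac

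Fancg (chr4:43010252-43010551, minus strand): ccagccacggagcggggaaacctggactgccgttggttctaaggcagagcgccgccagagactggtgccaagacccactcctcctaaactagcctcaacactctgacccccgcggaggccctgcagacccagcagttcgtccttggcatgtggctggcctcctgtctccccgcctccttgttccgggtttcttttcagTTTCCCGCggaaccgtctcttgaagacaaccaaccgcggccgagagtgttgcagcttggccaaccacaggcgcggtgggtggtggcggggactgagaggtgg

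Rad51c (chr11:87404905-87405204, minus strand): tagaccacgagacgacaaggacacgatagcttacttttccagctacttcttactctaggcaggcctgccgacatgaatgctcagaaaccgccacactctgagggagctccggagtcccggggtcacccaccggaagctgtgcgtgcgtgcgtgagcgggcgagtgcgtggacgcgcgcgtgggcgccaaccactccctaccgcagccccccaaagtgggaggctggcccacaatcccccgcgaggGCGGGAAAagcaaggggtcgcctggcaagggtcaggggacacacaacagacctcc

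Dmc1 (chr15:79605060-79605359, minus strand): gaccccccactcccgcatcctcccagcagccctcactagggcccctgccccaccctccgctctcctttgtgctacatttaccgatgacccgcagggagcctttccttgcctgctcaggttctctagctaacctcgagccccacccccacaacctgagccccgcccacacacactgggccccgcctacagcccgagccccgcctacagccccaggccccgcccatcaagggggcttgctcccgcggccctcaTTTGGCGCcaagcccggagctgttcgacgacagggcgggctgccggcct

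Counted from the start base as 0, with negative positions upstream, the match began at -152 in Chek2, -209 in Bard1, -168 in Brca2, -52 in Fancg, -5 in Rad51c and 1 in Dmc1. Genes with a match had a median level of 21.2 TPM (12.8 to 61.2 TPM, 6 genes) and genes without one a median of 17.0 TPM (3.56 to 70.6 TPM, 25 genes), so the ranges overlapped over most of their width. Windows were not always at the start of the gene in the annotation used for the levels. In 9 of 31 members the RefSeq start lay more than 100 bases from it, among them Bard1 (174 bases downstream) and Fancg (205 bases) with a match, and Fanci (409 bases) and Fancc (65533 bases) without one. Where this distance exceeded the 250 bases before the RefSeq start, as in Fanci and Fancc, the letters at the annotated start were not searched. In Bard1 and Fancg the annotated start lay inside the window, which reached less far upstream of it. The other motifs searched on both strands, none of which contains another, were the CCAAT box (CCAAT; 58.1% of members and 39.4% of expressed genes), the core of the CREB site (TGACG; 35.5% and 31.9%), an ETS site (CCGGAAGT; 6.45% and 8.66%), the E-box (CACGTG; 6.45% and 10.5%) and the CHR element (TTTGAA; 6.45% and 11.6%).

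The damage kinases and their partners spanned the widest range of any step as a fold between highest and lowest gene, on either length. Chek2, the effector kinase downstream of ATM, had 64.4 TPM in replicate 1 and 58.1 TPM in replicate 2. Chek1, the effector kinase of the ATR branch, had 42.2 and 44.5 TPM. Both effector kinases thus stood above the apical kinases that activate them, in either library. Atm, the kinase recruited to double-strand breaks, had 20.4 and 22.6 TPM. Atr, the kinase of stalled forks, had 11.3 and 10.9 TPM, and 25.5 TPM on the longest transcript, so the order of Atm and Atr turns with the length used. Atrip, the obligate partner of ATR, had 4.02 and 4.05 TPM from 362 and 314 counts, the lowest level of this step. The step median was 21.5 ± 1.54 TPM (SD, n = 2), and Chek2 exceeded Atrip 15.2-fold.

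End processing genes were among the better expressed. The MRN complex holds and trims broken ends, and its 3 subunit genes lay close together. Rad50 had 49.0 and 48.3 TPM in replicates 1 and 2, the nuclease gene Mre11a 34.5 and 37.2 TPM, and Nbn 33.7 and 36.2 TPM. Nbn and Mre11a differed by less than the spread between libraries of either gene. Exo1, the long-range resection nuclease, averaged 24.5 ± 0.896 TPM, and Trp53bp1, whose product restrains resection in favour of end joining, 27.5 ± 0.561 TPM. Rbbp8, which encodes the resection cofactor CtIP (GRCm38 chromosome 18, 11633276 to 11745221, plus strand), was the lowest of the step at 7.33 and 8.01 TPM. Its level on the longest transcript, 13.8 TPM, also lay below the other 5 genes. The step median was 31.2 ± 0.615 TPM.

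**Figure D1:**
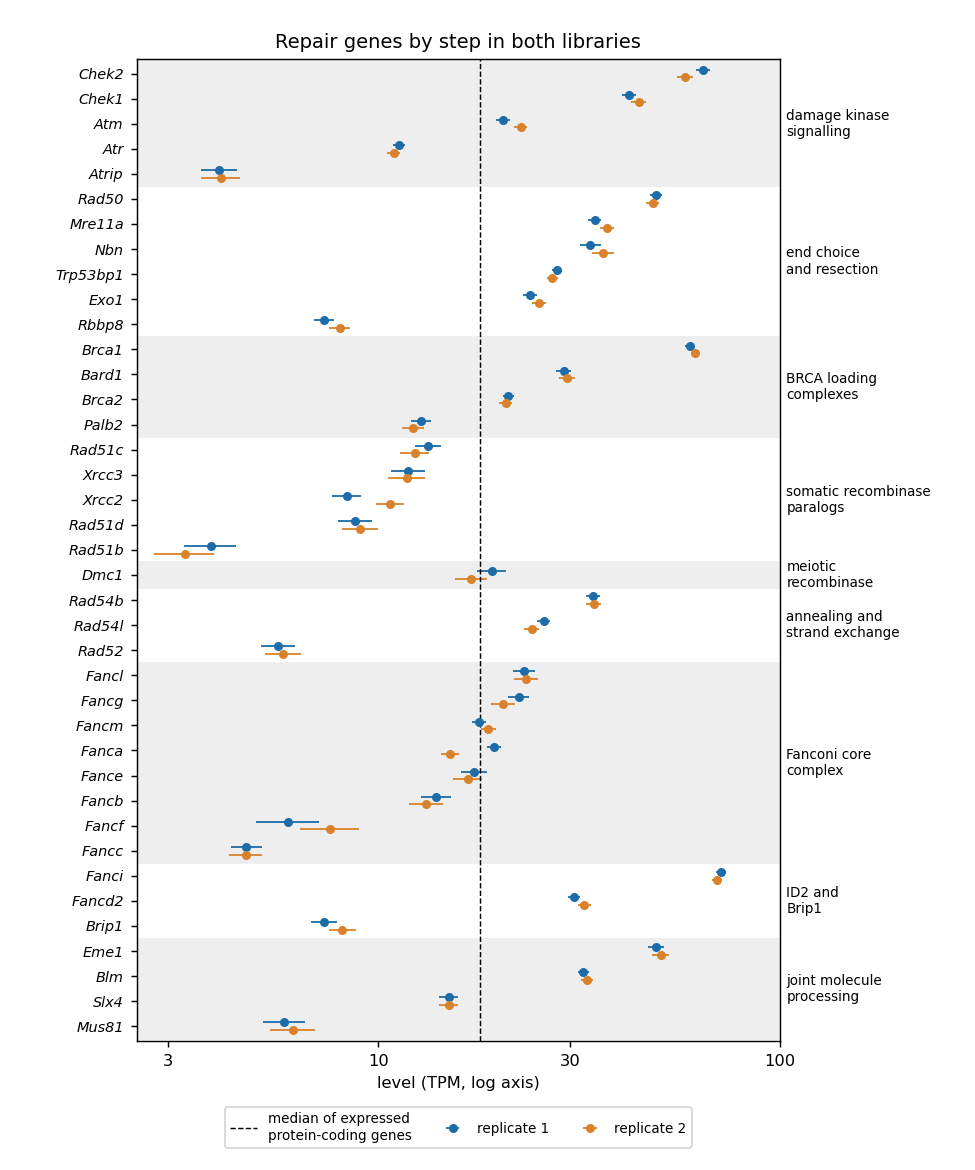
Level of each repair gene in TPM on a log axis, by repair step, in replicate 1 (blue) and replicate 2 (orange). Points are single libraries, bars are 95% exact Poisson intervals of the count, and the dashed line is the median of expressed protein-coding genes; Fanci, Chek2 and Brca1 lie furthest right and Rad51b and Atrip furthest left.

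The BRCA complexes load the recombinase, and their genes formed a graded series. Brca1 (ENSMUSG00000017146) lies on the minus strand of GRCm38 chromosome 11, from 101488764 to 101551955. Its 6397 and 5682 counts gave 59.5 and 61.5 TPM. Its partner in the ubiquitin ligase, Bard1, had 29.0 and 29.5 TPM. Brca1 exceeded Bard1 in both libraries, by a log2 ratio of 1.05 ± 0.015 (SD, n = 2), a 2.07-fold difference in TPM. Brca2, which delivers the recombinase to resected DNA, had 21.1 and 20.7 TPM. Palb2, the bridge between BRCA1 and BRCA2, was lowest at 12.8 and 12.2 TPM. Brca2 exceeded Palb2 by a log2 ratio of 0.74 ± 0.032, but by 0.12 on the longest transcripts, so the size of this difference depends on the length used.

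The somatic paralogs of the recombinase, which stabilise its filament, were the lowest step. All 5 stood under the median of expressed protein-coding genes in both libraries, with a step median of 9.72 ± 1.38 TPM (SD, n = 2). Rad51c, shared by both paralog complexes, had 13.3 and 12.3 TPM from 735 and 585 counts, and Xrcc3, its partner in the smaller complex, had 11.9 and 11.8 TPM. Their log2 ratio, Xrcc3 over Rad51c, was -0.12 ± 0.069. The remaining 3 paralogs join Rad51c in the larger complex. Rad51d averaged 8.87 ± 0.180 TPM and Xrcc2 had 8.34 and 10.7 TPM, and the log2 ratio of these binding partners, Xrcc2 over Rad51d, was -0.07 in replicate 1 and 0.25 in replicate 2, but 0.71 on the longest transcripts. Rad51b (ENSMUSG00000059060) lies on the plus strand of GRCm38 chromosome 12, from 79297282 to 79814690. Its 181 and 134 counts gave 3.83 TPM (95% exact Poisson interval 3.29 to 4.43) and 3.29 TPM (2.76 to 3.90). It was below Rad51c by a log2 ratio of -1.85 ± 0.074, or -1.22 on the longest transcripts.

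Dmc1, the meiotic recombinase gene, was expressed in these mitotic cells above each somatic paralog. Dmc1 (ENSMUSG00000022429) lies on the minus strand of GRCm38 chromosome 15, from 79561497 to 79605109. Its 587 and 449 counts gave 19.1 TPM (95% exact Poisson interval 17.6 to 20.8) and 17.0 TPM (15.5 to 18.7). It exceeded Rad51c, the highest paralog on merged exons, by a log2 ratio of 0.50 ± 0.041 (SD, n = 2), which was 0.52 in replicate 1 and 0.47 in replicate 2. On the longest transcript Dmc1 had 15.6 TPM and Xrcc2, then the highest paralog, 12.03 TPM. No exon of Dmc1 overlaps another annotated gene, and no stretch of 50 bases of its transcripts recurs in another gene.

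Other genes of meiotic recombination were present to very different degrees. Of 27 listed genes found, 16 (59.3%) reached 1 TPM in both libraries. Mnd1 (94.8 ± 11.2 TPM), whose product works with PSMC3IP to stimulate DMC1, and Hsf2bp (43.4 ± 1.68 TPM), which encodes a BRCA2 partner of germ cells, were highest. Psmc3ip, named here as the partner of Mnd1, averaged 15.8 ± 0.887 TPM. Spo11, the nuclease that makes meiotic breaks, had 0 and 1 counts and the meiotic reader gene Brdt 9 and 4 counts, so the gene for the nuclease was at or under the floor while those of the strand-exchange cofactors were not. Several members of this list were lower in replicate 2. The exact binomial test called 8 of 25 tested genes lower, where it called 13.1% of all tested genes, and 4 higher, where it called 11.2%. edgeR's exact test called 2 of the 25, Hormad2 (adjusted p = 0.00251) and Rec114 (adjusted p = 0.0220), where it called 0.456% of tested genes, and Hormad1 did not pass it (adjusted p = 0.0832). The axis genes Hormad1 (30.9 and 17.0 TPM in replicates 1 and 2) and Hormad2 (8.80 and 2.90 TPM) and the break-formation gene Rec114 (29.0 and 13.2 TPM), named after their values were seen, were among those the exact binomial test called lower. Of 8 germ cell markers 6 reached 1 TPM in both libraries, with a summed level of 84.6 TPM in replicate 1 and 62.5 TPM in replicate 2, Stra8 at 32.4 and 10.2 TPM and Ddx4 at 10.5 and 10.3 TPM, while Nanos2 had 1 count in each. In bulk RNA, a low level in all cells and a higher level in a few cannot be told apart, and the part of such cells in the level of Dmc1 was not tested.

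**Figure D2:**
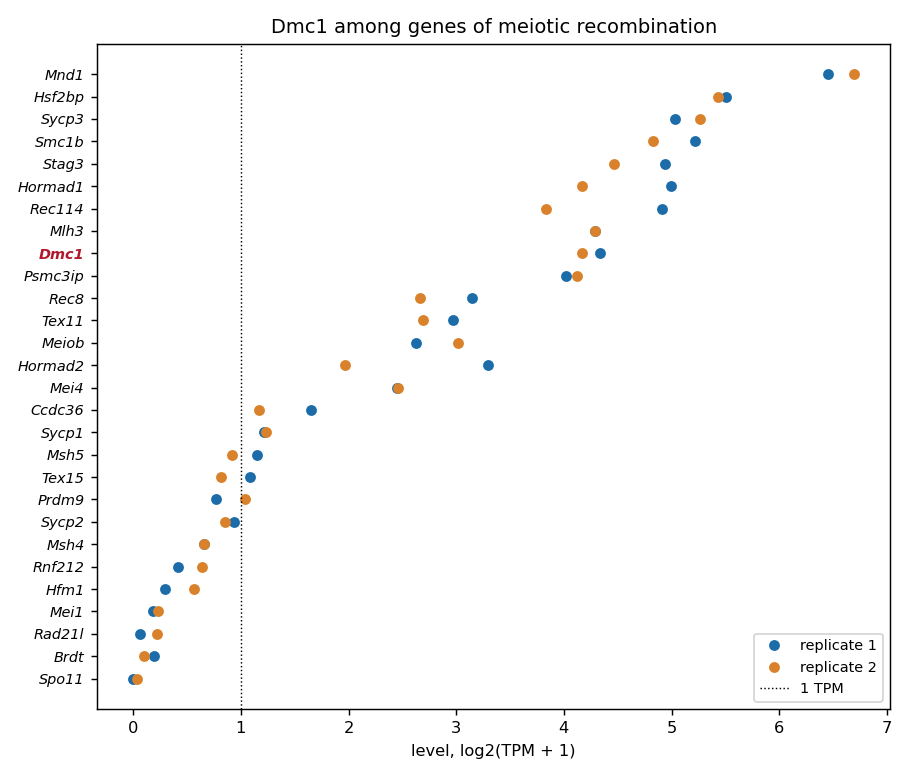
Level of Dmc1 (red label) and of 27 genes of meiotic recombination as log2(TPM + 1) in replicate 1 (blue) and replicate 2 (orange); the dotted line marks 1 TPM. Dmc1 lies in the upper part of the list, Mnd1 is highest, and Spo11 is at or near 0.

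Strand exchange is driven by the RAD54 motor proteins. Rad54l had 25.8 and 24.1 TPM in replicates 1 and 2. Its paralog Rad54b had 34.2 and 34.4 TPM, a log2 ratio over Rad54l of 0.46 ± 0.074 (SD, n = 2). Because of the exons shared with Fsbp, the part of Fsbp in this level cannot be told apart. Rad52, whose product anneals single strands and has a smaller role in mammals than in yeast, had 408 and 361 counts, or 5.63 and 5.80 TPM. It was the lowest gene of the step.

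The Fanconi core complex was expressed at modest levels around the pathway's central pair. Its 8 genes had a median of 16.7 ± 1.18 TPM (SD, n = 2). Fancl, the catalytic ubiquitin ligase subunit, had 23.1 and 23.3 TPM in replicates 1 and 2 and Fancg 22.4 and 20.5 TPM, the highest levels on merged exons. On the longest transcript Fanca was highest at 26.5 TPM, above Fancl at 22.6 TPM and Fancg at 21.5 TPM, so this order turns with the length used. Fancm, the translocase that anchors the complex, averaged 18.3 ± 0.659 TPM, Fanca 17.3 ± 3.07 TPM, Fance 17.0 ± 0.404 TPM and the X-linked Fancb 13.5 ± 0.543 TPM. The lowest were Fancf and Fancc. Fancf had 127 and 139 counts, or 5.97 TPM (95% exact Poisson interval 4.97 to 7.10) and 7.59 TPM (6.38 to 8.96). Fancc had 4.69 and 4.67 TPM, and 9.73 TPM on the longest transcript; 18.6% of its exon bases overlap genes on the opposite strand.

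The substrate pair of the core complex stood higher. Fanci had 5189 and 4361 counts, or 71.4 and 69.7 TPM, and Fancd2 had 30.7 and 32.6 TPM. The products of these genes form a heterodimer, yet Fancd2 was below Fanci in both libraries, by a log2 ratio of -1.16 ± 0.082 (SD, n = 2) and of -0.94 on the longest transcripts. Of the Fanci exon bases 16.0% overlap Polg on the opposite strand. Brip1, the helicase that binds BRCA1, had 7.34 and 8.13 TPM and was among the 10 members under 10 TPM.

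The last step, the processing of joint molecules, held the most uneven partners. MUS81 and EME1 together form a nuclease. Eme1 had 49.2 and 50.4 TPM in replicates 1 and 2, whereas Mus81 had 5.83 and 6.14 TPM from 262 and 237 counts. Eme1 exceeded Mus81 by a log2 ratio of 3.06 ± 0.026 (SD, n = 2), an 8.32-fold difference, and 5.46-fold on the longest transcripts. It was the largest ratio among the 14 pairs compared, under either length. Of the Eme1 exon bases 10.7% overlap Lrrc59 and Mrpl27 on the opposite strand, and of the Mus81 exon bases 4.85% overlap Efemp2 on the opposite strand. Blm, the helicase gene of Bloom syndrome, averaged 32.7 ± 0.434 TPM, or 47.4 TPM on the longest transcript, and the nuclease scaffold gene Slx4 had 15.0 TPM in both libraries.

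**Figure D3:**
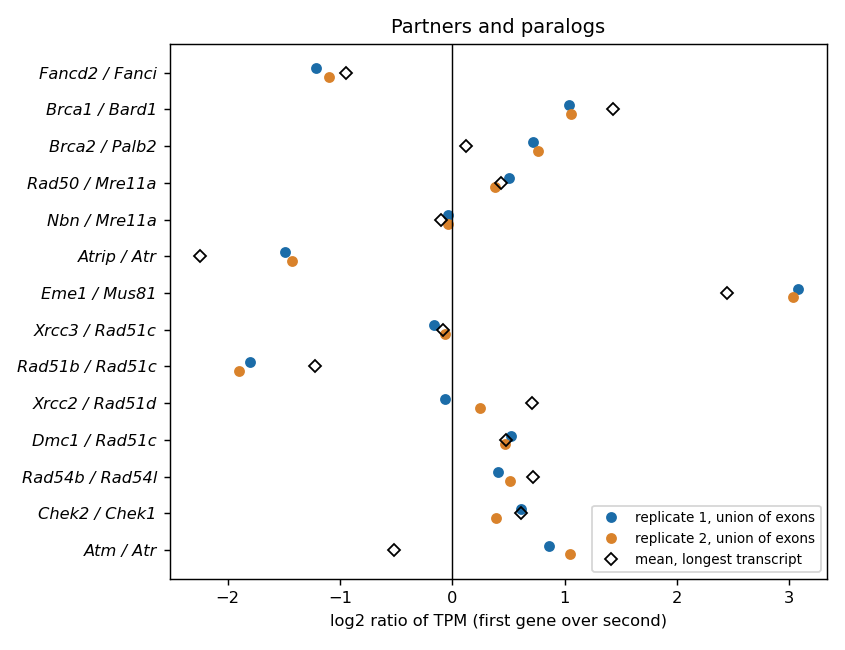
Log2 ratio of TPM between genes whose products bind each other or are paralogs, first gene over second, in replicate 1 (blue) and replicate 2 (orange) on merged exons, with the mean on the longest transcripts as open diamonds. Eme1 over Mus81 lies furthest right, and Atm over Atr changes sign with the length used.

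Genes that work beside these were read from lists chosen with earlier results of these data known. All 50 listed partners in recombination and crosslink repair were expressed, with a median of 21.0 and 20.1 TPM in replicates 1 and 2. The histone variant gene H2afx (594 ± 57.7 TPM), phosphorylated at breaks, and Sfr1 (238 ± 4.51 TPM), a recombinase accessory factor, were highest, and Fan1 (3.29 ± 0.237 TPM), a crosslink nuclease, and the ubiquitin ligase gene Rnf8 (3.25 ± 0.0924 TPM) were lowest. The end joining list was likewise expressed in full, 14 of 14 genes, with medians of 12.6 and 12.4 TPM. The single-strand break sensor gene Parp1 (474 ± 5.86 TPM) and Xrcc5 (207 ± 9.76 TPM), a subunit gene of the Ku heterodimer, led this list, while Dclre1c (6.56 ± 0.456 TPM), the Artemis nuclease, and Paxx (2.03 ± 0.719 TPM), a Ku-binding factor, were lowest. The difference of these lists from the repair genes was not tested.

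The libraries were then set against each other to give each level its error. A two-sided exact binomial test, its p-values adjusted by Benjamini-Hochberg, compares the reads of these libraries and not conditions, and covers counting error only. It called 5 of the 39 repair genes (12.8%), against 24.2% of 19078 tested genes and 31.5% of the 10487 genes in the count range of the members. Whether the members' share differs from these was not tested. Of the 5, 3 were higher in replicate 2, where 11.2% of tested genes were, and 2 were lower, where 13.1% were. The median log2 ratio, replicate 2 over replicate 1, was 0.02 for the members and -0.01 for all tested genes, and the median absolute ratio was 0.08 for the members and 0.11 for genes in their count range.

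Fanca was lower in replicate 2, with 2142 and 1431 counts in replicates 1 and 2. Its log2 ratio was -0.36 ± 0.049 (counting SE; exact binomial test, adjusted p = 8.14e-12). No other core complex gene was called, and Fancf, with a ratio of 0.35 ± 0.18 in the other direction, did not pass (adjusted p = 0.148, exact binomial test). Exons of Fanca overlap Zfp276 on the opposite strand over 10.5% of their bases. Xrcc2 was higher in replicate 2, with 548 and 604 counts, a log2 ratio of 0.36 ± 0.085 (exact binomial test, adjusted p = 0.000211). The other called genes differed less. Chek2 had a log2 ratio of -0.14 ± 0.044, Atm of 0.15 ± 0.040 and Mre11a of 0.11 ± 0.041, with adjusted p-values of 0.00673, 0.00141 and 0.0338 in the exact binomial test. Dmc1 was not called, at a log2 ratio of -0.16 ± 0.090 (adjusted p = 0.193, exact binomial test). With a trended dispersion estimated from these libraries, edgeR's exact test called none of the 39, where it called 0.456% of tested genes. Because the dispersion came from these same libraries, the difference under test counts in it. The common biological coefficient of variation, 9.99%, summarises the spread and was not the value used in the test. In edgeR's exact test 1 member, Fanca, had an unadjusted p under 0.05.

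**Figure D4:**
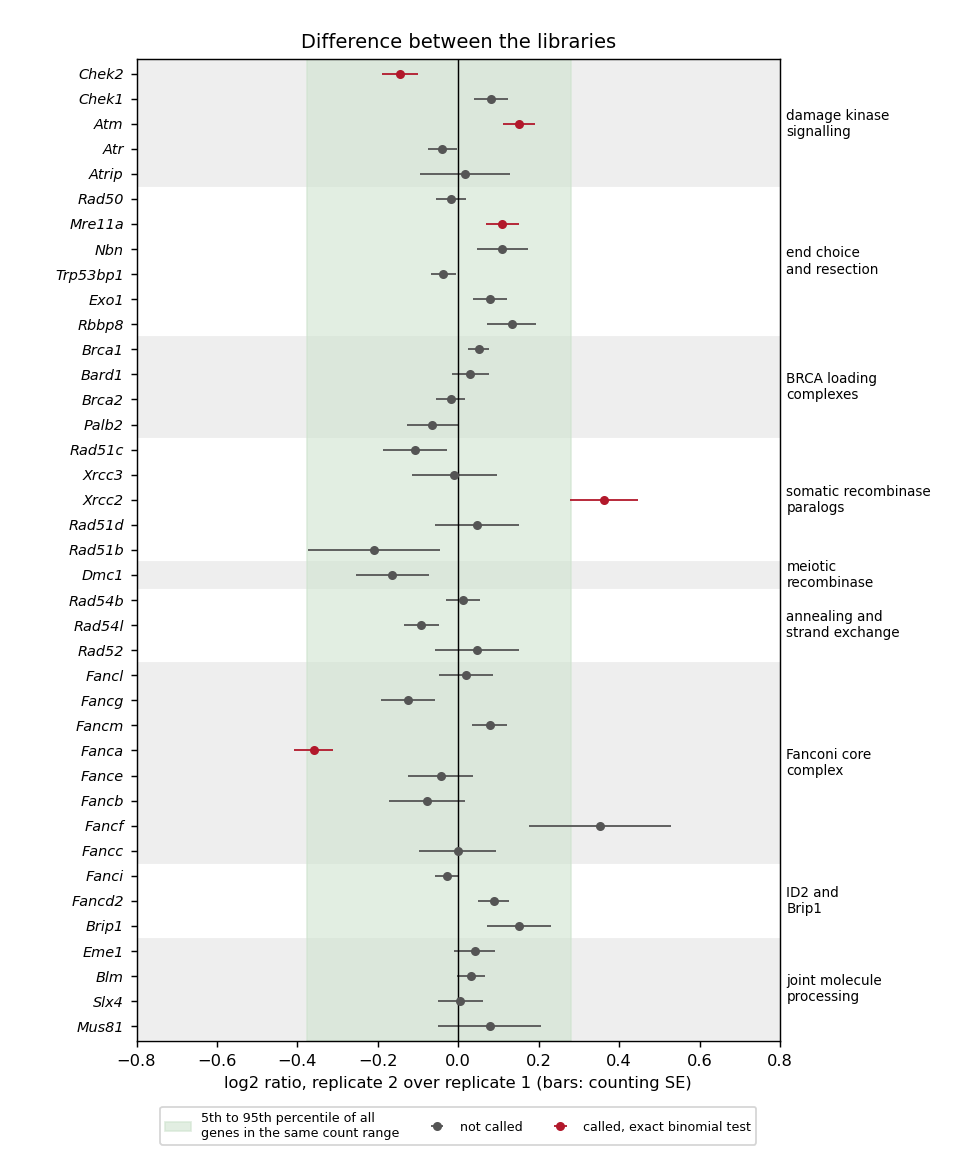
Log2 ratio of each repair gene, replicate 2 over replicate 1, with bars for the counting SE; red points passed the exact binomial test after adjustment over all tested genes. The green band is the range from the 5th to the 95th percentile of all tested genes in the same count range, -0.38 to 0.28, and only 2 members, Xrcc2 and Fancf, lie outside it.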

How the data were processed

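PolyA RNA libraries were prepared with a reverse-stranded TruSeq protocol, per the labels' protocols. STAR 2.4.2a and the mm10 (GRCm38) build are named in the submitters' processing notes. The deposited files hold raw counts per Ensembl gene. Not given in the sources used here are the counting tool, its strand setting, its handling of shared reads and its annotation. Of 47643 IDs, 47224 were named with GENCODE M21, and the others took 0.116 and 0.124% of counts.

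TPM was computed from counts and merged exon lengths of the named genes. Intervals are 95% exact Poisson intervals, and these and the floor cover counting error only. With 1 genotype, no comparison between genotypes was possible. Replicate 2 was set over replicate 1 by an exact binomial test at TMM-scaled library sizes (edgeR 4.0.16; factors 0.999 and 1.00), adjusted over genes reaching 10 counts over both libraries, at a threshold of 0.05. Log2 ratios used 0.5 added counts. For edgeR's exact test, both libraries as 1 group gave a trended dispersion. DESeq2 1.42.0 gave alternative size factors. Both tests were run on counts simulated with and without spread above counting error. The outcome is not reported here and lends no weight to the calls. GC content was read from the longest transcript, and the promoter of a gene was the window at its most upstream RefSeq start.

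The members, repair steps, context lists (partners in recombination and crosslink repair, meiotic recombination, end joining and cell type markers) and tests were chosen with earlier results of these data known. The promoter search was not planned: its motifs were chosen after the levels were seen, and its start rule after a first count of matches. Named genes were the members, the targeted genes, the markers and the 2 highest and 2 lowest of each context list. Psmc3ip, Hormad1, Hormad2 and Rec114 fall outside this rule and were named after their values were seen. Spata22 was not found by symbol.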

Additional observations from a re-analysis of the deposited data

How the results depend on the processing

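All 39 members stayed expressed in CPM, on the longest transcript, at 0.5 and 2 TPM, and in either library alone. Their median log2 level was 5.41 in CPM, 4.42 on the longest transcript, 4.25 as a mean, 4.26 with a pseudocount of 0.1 and 4.20 over the 29 members with under 10% exon overlap, an alternative added after the data were seen. Step medians on the longest transcript were 25.5 TPM for damage kinases, 28.5 TPM for end processing, 22.0 TPM for BRCA complexes, 15.6 TPM for Dmc1, 33.1 TPM for strand exchange, 19.4 TPM for the core complex, 35.9 TPM for Fancd2, Fanci and Brip1 and 30.03 TPM for joint molecule processing. In CPM the medians, in the order of the steps above with the paralogs before Dmc1, were 72.8, 75.9, 81.7, 11.98, 16.0, 69.5, 23.9, 91.1 and 45.7. Without Rad54b the strand exchange median was 15.3 TPM. Log2 ratios on the longest transcript were -0.94 for Fancd2 over Fanci, 1.43 for Brca1 over Bard1, 0.12 for Brca2 over Palb2, -0.10 for Nbn over Mre11a, -2.25 for Atrip over Atr, 2.45 for Eme1 over Mus81, -1.22 for Rad51b over Rad51c, 0.71 for Xrcc2 over Rad51d, 0.72 for Rad54b over Rad54l and -0.52 for Atm over Atr; the other pairs moved by less than their SD. With 2 libraries, a value from either alone lies within 1 SD of the mean by construction, so leaving one out tests no step median or pair ratio.

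edgeR's exact test called 87 of all tested genes and 0 members, against 4624 and 5 in the exact binomial test. Of its calls 25.3% were higher in replicate 2, against 46.1%. Its dispersion came from these same libraries as 1 group, so a difference between them also counts as spread. The 0 calls therefore do not show that the members were equal between the libraries. Under the other planned settings 5 members were called. The setting with more added counts could not change a call, because these enter only the log2 ratio and its SE. With the GC trend removed the 5 were Atr, Chek2, Fanca, Rad54l and Xrcc2, with 1 higher and 4 lower in replicate 2. Atr (-0.11, adjusted p = 0.0190 in the exact binomial test) and Rad54l (-0.11, 0.0424) were gained. Atm (0.09, adjusted p = 0.0956 in the exact binomial test) and Mre11a (0.08, 0.195) were lost. Ratios that changed sign then were those of Bard1 (-0.0041), Xrcc3 (0.0801), Rad54b (-0.0363), Fancc (0.0453), Fance (0.0352), Fancl (-0.0501) and Blm (-0.0132), none of them called, and Fancc (0.00063) at library totals. The cause was not tested. No paired analysis was possible because the series has 1 group. Fancf and Rad51b, with the fewest counts, have the widest counting errors.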
